A study of Mus musculus with 2 samples.

Results

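Bone morphogenetic proteins (BMPs) and transforming growth factors beta (TGF-beta) were followed here through 10 genes, chosen by symbol among the 25906 genes listed in the count files. They comprise the ligands Bmp6 and Tgfb2, the receptors Tgfbr2 and Acvrl1 with the co-receptor Eng, the inhibitory SMADs Smad6 and Smad7, and the target genes Id1, Id2 and Id3. Single-cell RNA counts came from sorted astrocytes and endothelial cells of adult mouse whole brain, in 1 library per genotype, and all 10 genes were found in both. The genotypes were IL34LacZ/+, named the control and treated as wild type by the submitters although it carries 1 LacZ allele, and IL34LacZ/LacZ, named the mutant and treated as the knockout. Both libraries thus carry the LacZ allele of Il34, the gene of a cytokine on which brain macrophages depend. For strain, sex, exact age and the number of mice pooled, the labels used here gave nothing.

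As background, TGF-beta and BMP ligands bind pairs of type I and type II receptor kinases, which phosphorylate SMAD proteins that enter the nucleus with SMAD4. In endothelial cells the type I receptor ALK1, encoded by Acvrl1, acts with endoglin, encoded by Eng, and inherited loss of either gene causes hereditary haemorrhagic telangiectasia. BMP signals induce the Id genes, whose products bind E proteins and keep them off DNA, and they induce Smad6 and Smad7, whose products feed back on the receptors.

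After filters on depth and mitochondrial share, 1648 cells of the IL34LacZ/+ library and 1168 of the IL34LacZ/LacZ library were kept, with medians of 8013 and 10378 unique molecular identifiers (UMIs) per cell. Classes were rebuilt from marker genes and are called "-like": 383 and 219 endothelial-like, 236 and 114 astrocyte-like, 116 and 110 fibroblast-like, 356 and 258 choroid plexus epithelium-like, 252 and 234 oligodendrocyte-like, 37 and 48 pericyte-like and 46 and 39 neuron-like cells. All 12 endothelial markers and all 12 astrocyte markers were detected in their own class in both libraries. All 12 of each list also had UMIs in choroid plexus epithelium-like cells of both libraries. The classes were named from these lists, so detection does not check the names. The libraries shared 8 deposited barcodes, 2 of them among kept cells. Il34 itself went against the labels: pericyte-like cells held 310 CPM (UMIs of a gene divided by all UMIs of its class, scaled to counts per 1e+06) in the library labelled IL34LacZ/+ and 516 CPM in the library labelled IL34LacZ/LacZ. A 3′ tag may lie outside the altered part of the gene, so the genotype was not checked by it, and every direction below is one between the libraries labelled so. With 1 library per genotype no test between genotypes exists. Intervals are exact 95% intervals for counting error only, and differences between mice or preparations cannot be told apart from genotype.

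Promoter sequence is shown for 3 of the genes because each holds a motif that SMAD complexes are known to bind. The windows come from RefSeq on GRCm38.p6, run 5′ to 3′ and have the motif in capitals. GTCTAGAC is the palindromic SMAD element, GGCGCC a GC-rich element bound by BMP SMADs, and CAGACA a form of the CAGA element.
Smad6, chr9:64022056-64022309, minus strand, 250 bases before the start site to 4 after it: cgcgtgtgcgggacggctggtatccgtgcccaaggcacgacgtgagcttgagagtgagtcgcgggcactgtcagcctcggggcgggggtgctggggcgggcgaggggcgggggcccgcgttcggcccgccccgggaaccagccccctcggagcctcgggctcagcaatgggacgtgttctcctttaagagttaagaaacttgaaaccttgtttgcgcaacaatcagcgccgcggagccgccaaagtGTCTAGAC
Tgfb2, chr1:186705990-186706239, minus strand, the 250 bases before the start site: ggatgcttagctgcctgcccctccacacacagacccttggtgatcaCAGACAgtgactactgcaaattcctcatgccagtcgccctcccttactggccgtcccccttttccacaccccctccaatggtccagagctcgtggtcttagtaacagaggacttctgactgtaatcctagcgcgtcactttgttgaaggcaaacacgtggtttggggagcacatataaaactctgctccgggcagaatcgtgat
Id2, chr12:25096254-25096342, minus strand, 89 bases from 250 before the start site: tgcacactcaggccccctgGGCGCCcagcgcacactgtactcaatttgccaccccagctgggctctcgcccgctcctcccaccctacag
Of 32851 RefSeq promoter windows of 300 bases, 70 held GTCTAGAC (0.213%), 3898 held GGCGCC (11.9%) and 6913 held CAGACA or its complement TGTCTG (21%). Windows were used for 7 of the 10 genes, and Id3, Bmp6, Tgfbr2 and Eng held none of the 3 motifs. Smad7 was not searched, and Id1 and Acvrl1 had no entry. The Id2 stretch lies inside the annotated Id2 gene, chr12:25093799-25097140, and was cut to 89 bases where an annotated untranslated region begins. A match describes the letters of the window and is not evidence of binding.

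The receptors were concentrated in endothelial-like cells in both libraries. Eng reached 978 CPM (937 to 1019) in the IL34LacZ/+ library and 883 CPM (834 to 933) in the IL34LacZ/LacZ library. UMIs of Eng were seen in 95.6% and 93.6% of endothelial-like cells. Acvrl1 stood at 362 CPM (337 to 388) and 365 CPM (334 to 398), and Tgfbr2, the type II TGF-beta receptor, at 440 CPM (413 to 469) and 377 CPM (346 to 411). Oligodendrocyte-like cells, which should lack these receptors, had Eng UMIs in 2.78% and 1.28% of cells and Tgfbr2 UMIs in 1.19% and 0.855%. Acvrl1 had 0 UMIs in 252 oligodendrocyte-like cells of the IL34LacZ/+ library, where 3 UMIs would make 0.858 CPM and the exact 95% upper limit was 1.05 CPM, and 1 UMI in 234 such cells of the other, although their median depths of 13718.5 and 16735.5 UMIs exceeded the endothelial 5232 and 6018.

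Beyond the endothelium the receptors parted. Eng was also found in pericyte-like cells, where it stood at 222 CPM (interval 164 to 295) and 173 CPM (interval 126 to 232), with a UMI in 54.1% and 56.3% of them. Tgfbr2 came next in fibroblast-like cells, at 216 and 256 CPM. Neuron-like cells showed Eng at 250 and 132 CPM and Acvrl1 at 55.8 and 74.1 CPM, but the endothelial tight-junction gene Cldn5 stood there at 329 and 190 CPM. The part of endothelial RNA in the neuron-like values was not tested.

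The ligands had different sources. Tgfb2 was highest in endothelial-like cells, where it stood at 374 CPM (interval 349 to 400) and 245 CPM (interval 219 to 272), followed by choroid plexus epithelium-like cells at 159 and 155 CPM. Bmp6 was highest in fibroblast-like cells, where it stood at 440 CPM (interval 409 to 472) and 411 CPM (interval 380 to 443), 8.61-fold and 6.86-fold above choroid plexus epithelium-like cells, the next class in both libraries. Bmp6 in endothelial-like cells rested on few cells: 59 UMIs in 9 cells and 15 UMIs in 6 cells, with 59.3% and 53.3% of the UMIs in 1 cell.

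The Id genes were highest in fibroblast-like cells in both libraries. Within that class they were far higher in the cluster led by Ccn3 and Slc47a1 than in the other, as described below. Over the whole class Id1 stood at 535 and 381 CPM, and at 366 and 253 CPM in endothelial-like cells. Id3 stood at 877 and 657 CPM in fibroblast-like cells and at 304 and 188 CPM in endothelial-like cells. Id2 took a different second place: astrocyte-like cells held 285 CPM (interval 263 to 309) and 243 CPM (interval 217 to 272) of it, whereas endothelial-like cells held 42.3 and 25.5 CPM. For Id1, a UMI was seen in 66.3% and 58.0% of endothelial-like cells against 4.76% and 2.14% of the deeper oligodendrocyte-like cells.

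The inhibitory SMADs did not share a profile. Smad6, which blocks mainly BMP signals, was highest in endothelial-like cells, where it stood at 124 CPM (interval 110 to 139) and 92.2 CPM (interval 77.0 to 109). Smad7, which blocks TGF-beta and BMP receptors, had its highest level in oligodendrocytes by these classes, 316 CPM (interval 298 to 335) and 359 CPM (interval 342 to 378). Endothelial-like cells came next at 274 and 208 CPM, 1.15-fold and 1.73-fold lower. Smad6 was all but missing from the same oligodendrocyte-like cells, with 0 UMIs in one library and 1 in the other. The class with the highest level was the same in both libraries for all 10 genes.

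**Figure D1:**
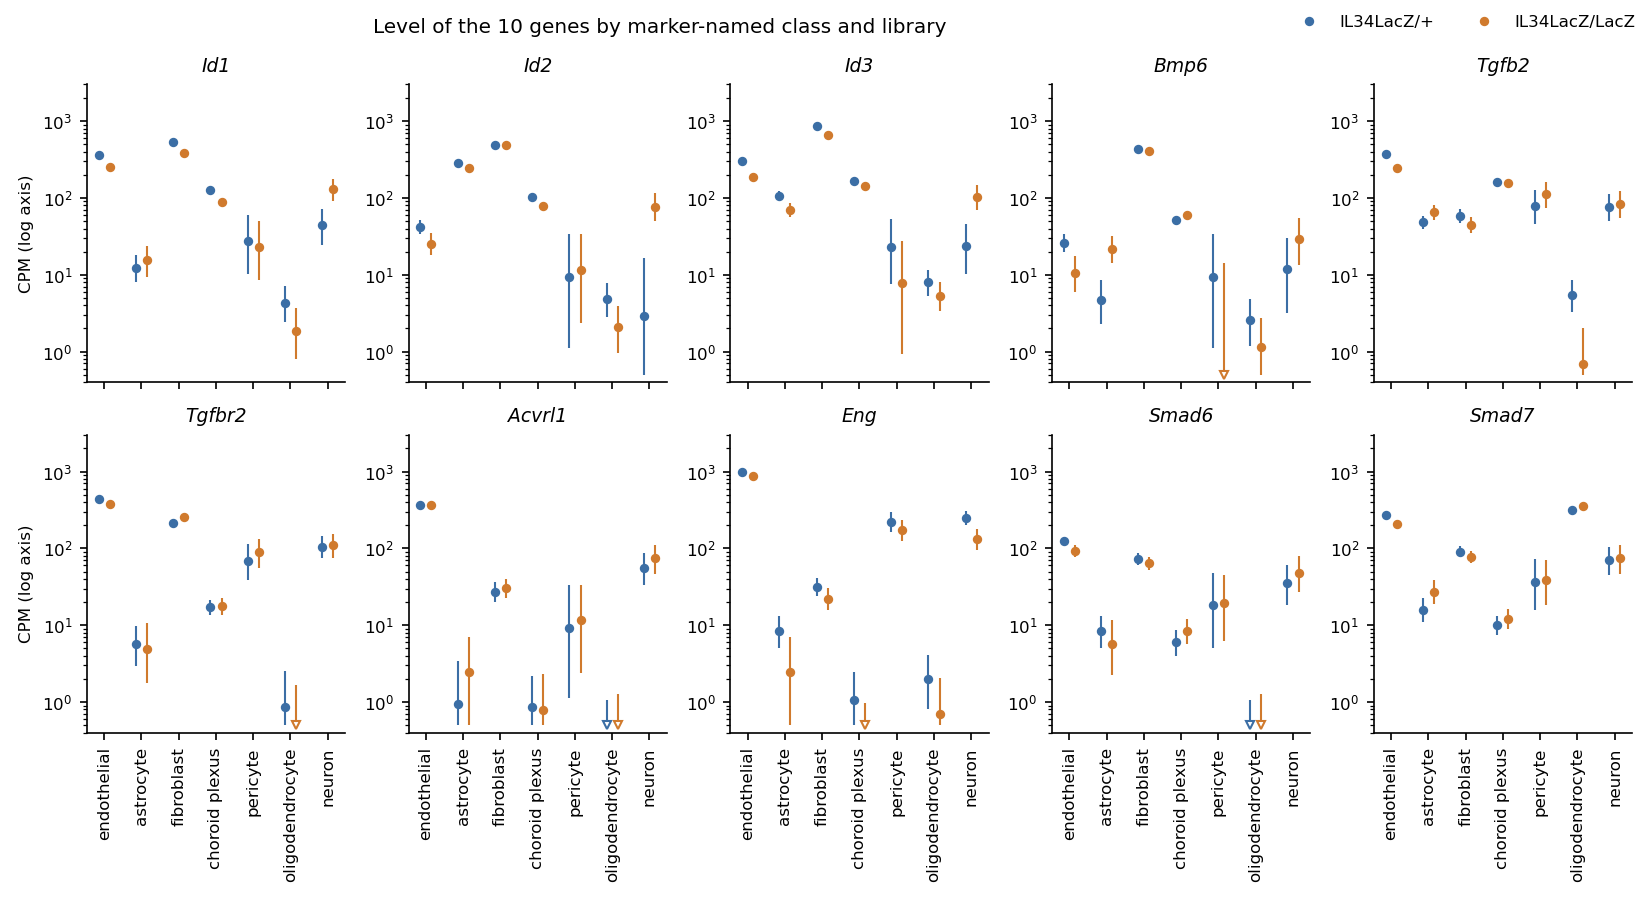
CPM on a log axis in 7 marker-named classes, with IL34LacZ/+ in blue and IL34LacZ/LacZ in orange. Points are summed counts of 1 library with exact 95% Poisson intervals, and open triangles mark values under 0.5 CPM, drawn at 0.5. Acvrl1 and Eng peak in endothelial-like cells, the Id genes and Bmp6 in fibroblast-like cells and Smad7 in oligodendrocyte-like cells.

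Shares of cells were also taken at one depth. With each cell thinned to 3000 UMIs, which left out 51 and 28 shallower endothelial-like cells, Eng was seen in 91.0% and 88.5% of endothelial-like cells, Acvrl1 in 62.7% and 59.2% and Tgfbr2 in 68.7% and 61.8%. Smad7 was seen in 51.7% and 61.8% of thinned oligodendrocyte-like cells. Id2 was seen in 43.0% and 48.2% of thinned astrocyte-like cells, while Acvrl1 was seen in 0 of 228 and 0 of 114. The interval for the latter reached 1.60% and 3.18%.

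Fibroblast-like cells fell into 2 clusters with different levels of the Id genes and of Bmp6. One, led by Ccn3 and Slc47a1, held 93 and 85 cells, and the other, led by Cemip and Lama1, held 23 and 25. Id1 stood at 629 and 455 CPM in the Slc47a1-led cells and had 8 and 2 UMIs in the Cemip-led cells. Id2 stood at 577 and 582 CPM and had 4 and 3 UMIs in the Cemip-led cells, and Id3 at 1017 and 767 CPM against 131 and 101 CPM. Bmp6 ran the other way, with 1149 CPM (1024 to 1285) and 1165 CPM (1040 to 1302) in the Cemip-led cells against 307 and 261 CPM. Tgfb2, the other ligand, had 95 and 64 UMIs in the Slc47a1-led cells and 4 and 8 in the Cemip-led cells, 4.45-fold and 1.59-fold higher in the former. The 10 genes were left out of the clustering, but genes that vary with them were not, so the split is a description. Over all fibroblast-like cells the summed level of 16 immediate early genes was 4580 and 3464 CPM, and its part in the Id values was not tested.

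**Figure D2:**
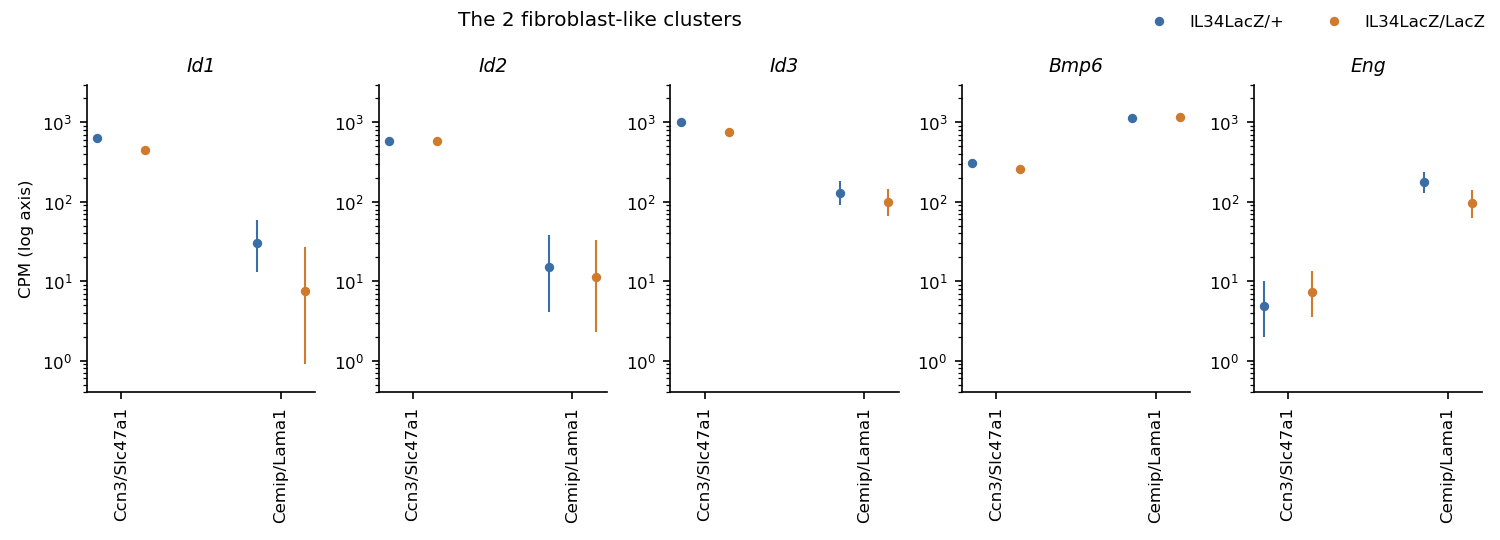
CPM on a log axis of 5 genes in the 2 fibroblast-like clusters, named by their leading genes, with exact 95% Poisson intervals and the same colours for the libraries. The 3 Id genes are high in the Slc47a1-led cluster and Bmp6 is high in the Cemip-led cluster in both libraries.

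Between the libraries, Id2, Id3 and Tgfb2 were lower in endothelial-like cells of the IL34LacZ/LacZ library. A gene was counted as past the fold when its CPM differed by more than 1.5-fold, with at least 100 UMIs over both libraries and 20 CPM in one. Of 9 measured genes 3 were lower and 0 higher by that rule, against 5.6% lower and 2.64% higher among all 5574 measured genes. Bmp6 had too few UMIs to count.
Id3 stood at 304 CPM (282 to 328) and 188 CPM (166 to 212), a log2 ratio of -0.69 (-0.90 to -0.49). All 3 that passed are a ligand or target genes. Tgfb2 gave a log2 ratio of -0.61 (-0.80 to -0.43). Id2 gave -0.73 (-1.33 to -0.16) on 95 and 36 UMIs. The remaining 6 stayed within the fold. Id1 had a log2 ratio of -0.53 (-0.71 to -0.35), Smad6 of -0.43 and Smad7 of -0.40. The receptors lay closest to 0, with Tgfbr2 at -0.22, Eng at -0.15 and Acvrl1 at 0.01 (-0.15 to 0.17).

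The make-up of the endothelial-like cells differed between the libraries. A cluster led by Ctla2a and Ly6c1 and rich in ribosomal protein transcripts (median 2.19% and 1.51% of UMIs, against 0.52% to 0.80% in the other endothelial-like clusters) held 19.3% of endothelial-like cells in the IL34LacZ/+ library and 9.59% in the IL34LacZ/LacZ library. Id1 stood at 702 CPM (625 to 786) and 566 CPM in that cluster, against 261 and 224 CPM in the largest one, and Id3 at 704 and 574 CPM against 186 and 163 CPM. Both Id genes were high in this cluster in each library. The part of the cluster's share in the class levels was not tested, and with 1 library per genotype it cannot be told apart from genotype.
In alternatives chosen after these values were seen, leaving the cluster out left Tgfb2 at -0.68, Id2 at -0.67, Id3 at -0.46 and Id1 at -0.35. Only Tgfb2 still counted, since Id2, although past the fold, had 67 and 30 UMIs and so missed the floor of 100. Comparing the libraries within each of the 5 clusters and pooling the ratios (Mantel-Haenszel) left 0, with Id3 at -0.35, Tgfb2 at -0.46 and Id2 at -0.42. Summed CPM of 16 immediate early genes was 2524 and 2188 in the Ctla2a-led cluster and 1052 and 804 in the largest one. Over all endothelial-like cells it was 1479 and 966, and 5 of 10 measured immediate early genes were past the fold lower. Their part in the Id values was not tested. Summed CPM of microglial markers in endothelial-like cells was 458 and 349, and of choroid plexus markers 1446 and 1031. Cldn5 itself stood at 2443 and 1652 CPM.

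**Figure D3:**
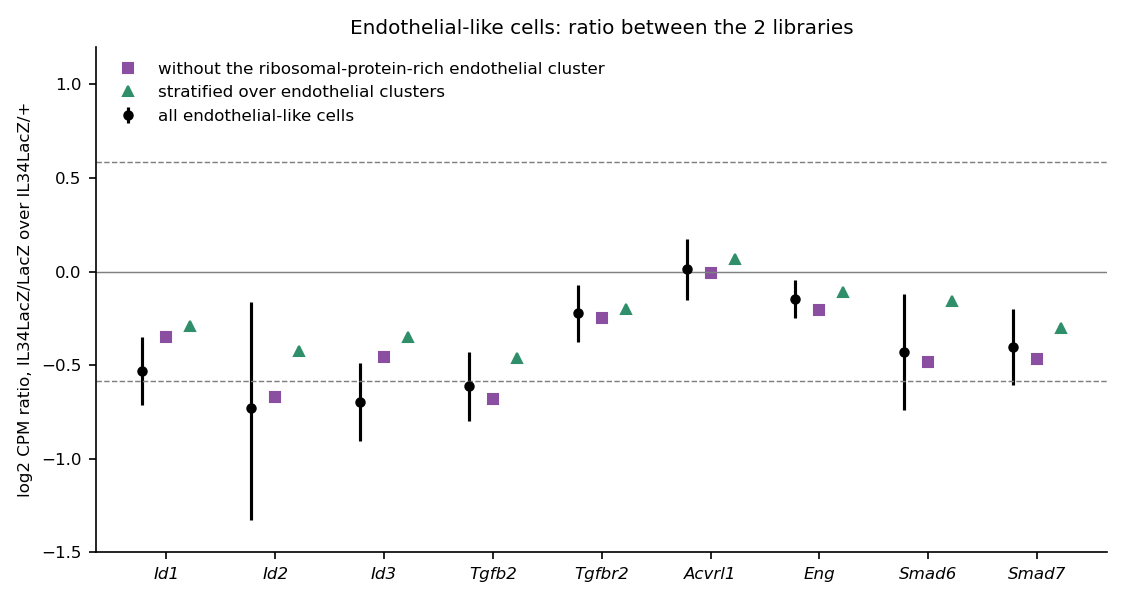
Log2 CPM ratio of IL34LacZ/LacZ over IL34LacZ/+ in endothelial-like cells for the 9 measured genes. Black points with exact 95% intervals for counting error use all endothelial-like cells, squares leave out the ribosomal-protein-rich cluster and triangles pool ratios taken within clusters, and dashed lines mark 1.5-fold. Id2, Id3 and Tgfb2 lie below the lower line with all cells and above it with ratios pooled within clusters.

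**Figure D4:**
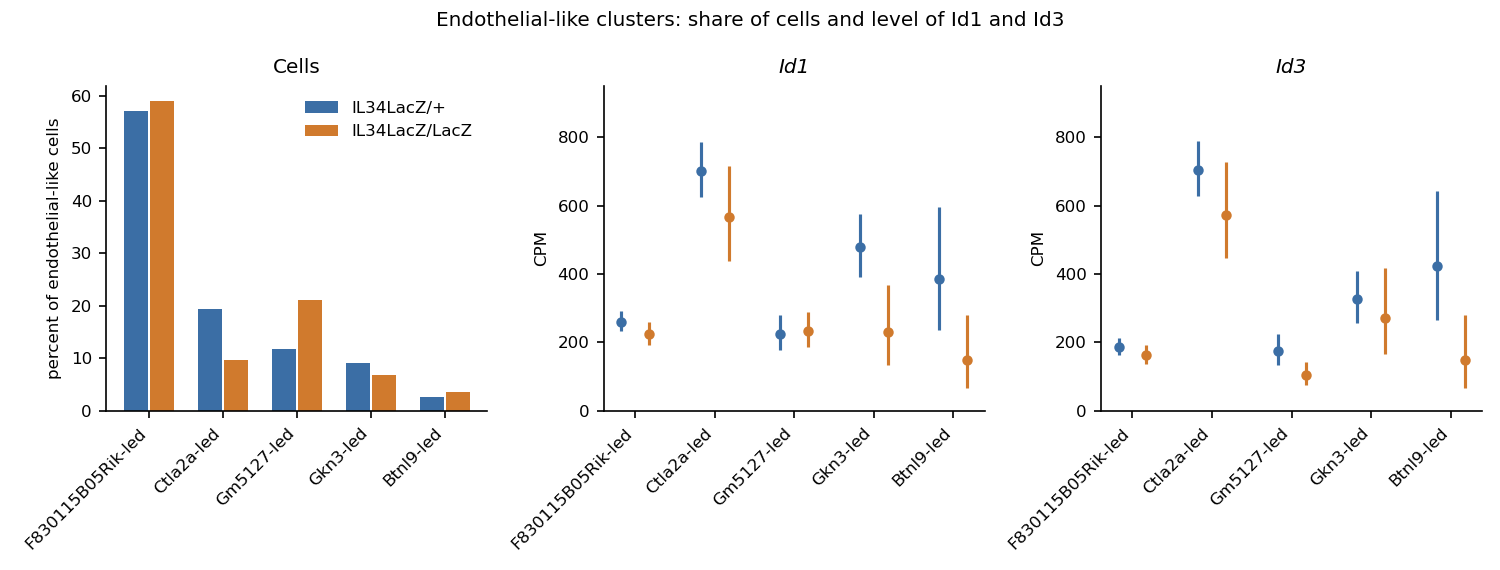
Percent of endothelial-like cells in each of 5 clusters, named by their leading gene, and CPM of Id1 and Id3 with exact 95% Poisson intervals. The Ctla2a-led cluster has the highest Id1 and Id3 in both libraries and 19.3% against 9.59% of the cells.

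Tgfb2 differed between the libraries in the cluster led by Gkn3 and Bmx. It stood there at 803 CPM in 35 cells of the IL34LacZ/+ library and at 243 CPM in 15 cells of the IL34LacZ/LacZ library, where it rested on 18 UMIs. A single cell held 41 of the 185 UMIs of the first library. In the largest cluster it stood at 362 and 274 CPM. The Gkn3-led cells of the second library were shallow, with a median of 3176 UMIs against 5754, and the part of depth was not tested. Bmp6 went in opposite directions in 2 small clusters. It had 4 and 11 UMIs in the Gkn3-led cells, and 47 and 2 UMIs in the Btnl9- and Plvap-led cells, 35 of the 47 in a single cell. The arterial-like cells described below also held 4 and 11 UMIs of Bmp6, in 2 cells of each library, 8 of the 11 in a single cell.

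Endothelial zones were named from sub-clusters on arterial, capillary, venous and fenestrated markers. The capillary scores (median log2 fold of the markers) were weak, and 2 sub-clusters stayed unnamed. The larger scored 0.25 for capillary markers, above named capillary sub-clusters at 0.16 and 0.10. It stayed unnamed because its leading genes held Slc25a37, an erythrocyte marker, and no endothelial or capillary marker. The other scored -0.16. The 2 unnamed sub-clusters held 156 of 383 endothelial-like cells in the IL34LacZ/+ library and 81 of 219 in the IL34LacZ/LacZ library. Their cells are in none of the zone comparisons below. Smad6 stood out in arterial-like cells, at 395 CPM (318 to 484) in 34 cells against 93.9 CPM (73.7 to 118) in 127 capillary-like cells of the IL34LacZ/+ library. In the IL34LacZ/LacZ library it was 609 CPM (441 to 820) in 14 cells against 67.5 CPM (46.5 to 94.8) in 67. The log2 ratios were 2.07 (1.61 to 2.53) and 3.17 (2.49 to 3.87). By the rule of 100 UMIs, Smad6 counted only in the first library, since the second held 43 and 33 UMIs, so 0 genes were past the fold higher in both libraries. With a floor of 30 UMIs, set after that count of 0 had been seen, Smad6 was the 1 gene that passed in both.
In the IL34LacZ/+ library 3 of 8 measured genes were past the fold higher in arterial-like cells, namely Tgfb2, Smad6 and Smad7, against 12.1% of all measured genes, and Id3 was past it lower, against 18.7%. That Id3 call depended on which cells were taken as capillary-like, which included a ribosomal-protein-rich sub-cluster. Against the other capillary-like cells arterial-like Id3 was higher, 334 against 213 CPM (log2 ratio 0.65, 0.19 to 1.11). So was Id1, at 425 against 258 CPM. Against all capillary-like cells of the same library, another seed gave Id3 at -0.22 (-0.59 to 0.13). Gating on zone markers gave 0.10 (-0.22 to 0.42), and sub-clustering at resolution 2 gave -0.68 (-1.05 to -0.32), still past the fold. For Smad7 the call against all capillary-like cells rested on 1 cell, which held 24 of its 100 arterial-like UMIs. Without that cell Smad7 stood at 352 against 246 CPM, higher but within the fold (log2 ratio 0.52, 0.11 to 0.91). Against the other capillary-like cells, with that cell kept, Smad7 stood at 429 against 198 CPM, past the fold. In the IL34LacZ/LacZ library that comparison gave 311 against 201 CPM on 22 and 72 UMIs, under the floor of 100. With cells gated on zone markers, Smad7 stayed within the fold in both libraries. The log2 ratios against capillary-like cells were 0.19 (-0.15 to 0.52) and -0.26 (-0.94 to 0.37). Another seed and sub-clustering at resolution 2 left it past the fold in the IL34LacZ/+ library, at 0.63 and 0.68. With the zones as first named, 1 of 7 genes was higher in the IL34LacZ/LacZ library, against 12.3%, and 0 were lower, against 27.4%. That gene was Acvrl1, at 609 against 370 CPM. Without its highest arterial-like cell it stood at 503 against 370 CPM, within the fold. Tgfb2 showed 729 against 358 CPM in the first, a log2 ratio of 1.03 (0.74 to 1.31), and 255 against 239 CPM in the second, a ratio of 0.09 (-0.71 to 0.81). The difference between the libraries was not tested. In the second, 8 of the 18 arterial-like UMIs of Tgfb2 lay in 1 cell. With cells gated on zone markers, Tgfb2 gave log2 ratios of 0.96 (0.71 to 1.21) and 0.73 (0.17 to 1.27), past the fold in both libraries. The second of these rested on 46 and 80 UMIs. Another seed and sub-clustering at resolution 2 left Tgfb2 in the second library at 0.06 and -0.18.

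Venous-like cells had lower Id3 than capillary-like cells taken whole. It stood at 162 CPM in 57 venous-like cells against 510 CPM in capillary-like cells of the IL34LacZ/+ library, and at 108 CPM in 49 cells against 305 CPM in the other. Id1 was 240 against 533 CPM and 255 against 307 CPM. Of 7 measured genes 3 were past the fold lower in the first library (Id1, Id3 and Tgfb2, against 13.9% of all measured genes) and 2 in the second (Id3 and Eng, against 10.7%). Capillary-like cells included a ribosomal-protein-rich sub-cluster of 68 and 22 cells with Id3 at 820 and 527 CPM, against 213 and 223 CPM in the other capillary-like cells. Against the other capillary-like cells, venous-like Id3 gave a log2 ratio of -0.39 (-0.88 to 0.09) in the first library, within the fold, and -1.04 (-1.62 to -0.49) in the second. Venous-like Id1 gave -0.11 (-0.52 to 0.31) in the first, no longer past the fold, and 0.34 (-0.11 to 0.80) in the second, with its direction turned. Tgfb2 in the first library (-0.60) and Eng in the second (-0.65) remained past the fold. These comparisons with the other capillary-like cells, and those without a single cell, were added after the values had been seen. In each library Id1 and Id3 were past the fold higher in the ribosomal-protein-rich sub-cluster than in the other capillary-like cells. They were 2 of 7 measured genes, against 16.3% and 10.2% of all measured genes.

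**Figure D5:**
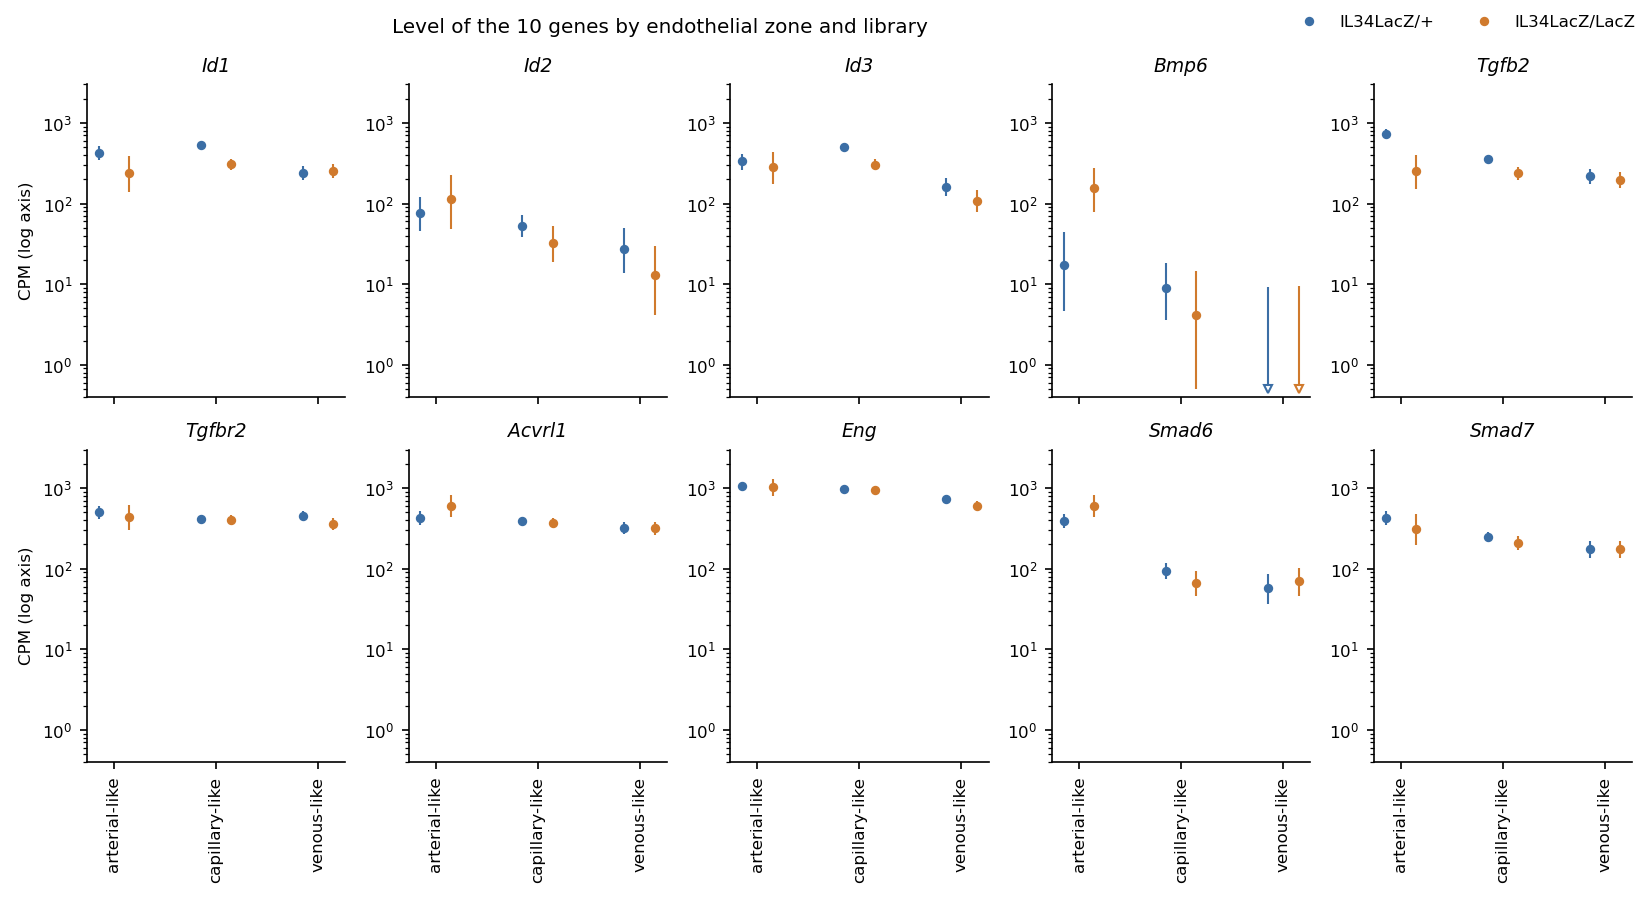
CPM on a log axis in arterial-like, capillary-like and venous-like cells, with exact 95% Poisson intervals, the same colours for the libraries and open triangles for values under 0.5 CPM. Smad6 is highest in arterial-like cells in both libraries, and Tgfb2 stands at 729 against 358 CPM of capillary-like cells in IL34LacZ/+ but at 255 against 239 CPM in IL34LacZ/LacZ. With cells gated on zone markers, which is not drawn, Tgfb2 was past the fold higher in arterial-like cells of both libraries.

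Astrocyte-like cells carried mainly Id2, Id3 and Tgfb2, the 3 genes measured there. Id3 stood at 107 CPM (93.3 to 122) and 70.3 CPM (56.3 to 86.7), a log2 ratio of -0.60 (-0.98 to -0.24) that lay just past the fold and did not reach it under 6 of the alternatives. Id2 gave -0.23 (-0.44 to -0.03), and Tgfb2 gave 0.43 (0.00 to 0.87) from 48.4 and 65.5 CPM. Among all 5574 measured genes 3.53% were past the fold lower and 2.37% higher, against 1 and 0 of the 3. Single cells weighed on this class: 95.1% of Fos UMIs of astrocyte-like cells in the IL34LacZ/LacZ library came from 1 cell, and 20.7% of those of Id3. Summed CPM of choroid plexus markers in astrocyte-like cells was 8660 and 13934, and of erythrocyte markers 1979 and 10006, and their part was not tested.

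Of the 8 genes measured in fibroblast-like cells 0 were past the fold, against 3.91% of all measured genes lower and 2.75% higher. Of the 5 measured in choroid plexus epithelium-like cells 0 were past it, against 0.726% and 4.51%. Smad7, the 1 gene measured in oligodendrocyte-like cells, was not, against 1.58% and 0.894%. In pericyte-like cells 0 genes reached 100 UMIs, where 5.57% and 13.4% of measured genes were past the fold. Eng, the 1 gene measured in neuron-like cells, was past it lower at -0.92 (-1.49 to -0.36), against 8.72% lower and 10.2% higher, beside the Cldn5 values given above. In fibroblast-like cells Id1 gave -0.49 (-0.64 to -0.34) and Id3 -0.42 (-0.53 to -0.30), while Id2 gave -0.00 (-0.15 to 0.14) and Bmp6 -0.10 (-0.25 to 0.06). In choroid plexus epithelium-like cells Id1 gave -0.54 (-0.74 to -0.35). Smad7 in oligodendrocyte-like cells gave 0.18 (0.07 to 0.30).

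The wider pathway was described from 103 listed genes, the 10 included. In endothelial-like cells 40 were measured, 4 of them past the fold lower and 1 higher, against the 5.6% and 2.64% of all measured genes, with a median log2 ratio of -0.14 against -0.01 over all measured genes. Without the 10 genes, 31 were measured, with 1 lower, Junb, and 1 higher, Mgp. The median log2 ratio of these 31 was -0.10, against -0.43 for the measured genes among the 10. Junb, an immediate early gene, stood at 44.6 and 23.4 CPM. Mgp, a secreted BMP inhibitor, stood at 86.5 and 232 CPM. In fibroblast-like cells Mgp stood at 10733 and 11740 CPM, and the part of fibroblast RNA in the endothelial values was not tested. None of 8 measured receptors and co-receptors and none of 5 measured SMAD transducers was past the fold. In astrocyte-like cells 32 were measured, with 1, Id3, past the fold lower and 0 higher. Among all measured genes there, 3.53% were lower and 2.37% higher.

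Of 43 listed genes with 100 CPM or more in the same highest class of both libraries, 19 peaked in fibroblast-like cells, 15 in endothelial-like cells, 4 in astrocyte-like cells, 2 each in choroid plexus epithelium-like and oligodendrocyte-like cells and 1 in pericyte-like cells. The shares of 44.2% for fibroblast-like and 34.9% for endothelial-like cells stand beside 12.3% and 20.8% among all 4191 genes that met the same condition, with no test. Endothelial-like cells had Bmpr2, the type II BMP receptor, at 1249 and 1131 CPM and the E protein gene Tcf4 at 2017 and 2216 CPM. Fibroblast-like cells had the ligand Bmp4 at 309 and 326 CPM. Astrocyte-like cells had the type I BMP receptor Bmpr1b at 650 and 610 CPM and Id4 at 135 and 123 CPM. Choroid plexus epithelium-like cells had Sostdc1, a secreted BMP antagonist, at 1113 and 1015 CPM.

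Across the 14 sums of 7 classes in 2 libraries, the genes whose profile was most like that of Acvrl1 were Plxnd1, Rin3 and Cav1 (Pearson r 0.99, 0.99 and 0.98 on log2 of CPM plus 10). Those most like Eng were Fmnl3, Apcdd1 and Sh3bp4 (0.99 each). Smad6 was most like Abcg2, Tgfbr2 and Gpr4 (0.98, 0.97 and 0.96), and Smad7 most like Serinc5, Dusp7 and Sh3glb1 (0.97, 0.95 and 0.94). The nearest genes were Vim for Id1 (0.96), Tmem176a for Id2 (0.94), Psmb10 for Id3 (0.93), Jpt1 for Bmp6 (0.96), Pltp for Tgfb2 (0.93) and Abcg2 for Tgfbr2 (0.98). The sums share libraries and depth, so these values are descriptions.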

How the data were processed

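Each deposited matrix gives a count of UMIs for a gene in a barcode. Per the file headers the authors ran Cell Ranger 7.1.0. The build was GRCm38.p6, also written mm10, per the submitters' processing notes. Libraries used the 10x 3′ kit v3.1 per the labels' protocols. The annotation release and which markers guided the sort are not given in the sources used here. Deposited totals were 26679053 UMIs in 3901 barcodes and 36696941 UMIs in 5400 barcodes. Barcodes with at least 1000 UMIs, 500 genes and at most 15% mitochondrial UMIs were kept, and 38.5% and 47.8% exceeded that last limit. Scrublet marked 20 and 7 doublets (1.20% and 0.596%), which were left out. Cells were clustered with scanpy 1.11.5 (2000 variable genes, 30 components, 15 neighbours, Leiden resolution 1) without the 10 genes, Il34, Vcam1, Icam1 and Il1r1, and without mitochondrial, ribosomal protein, haemoglobin and Y-linked genes. Clusters were named from the marker lists, and a low-depth cluster that scored endothelial (median 2436 UMIs) stayed unnamed. Counts were summed per class and library and divided by the class total. Intervals are exact (Poisson, Clopper-Pearson, conditional binomial). On simulated endothelial counts, 98% of 200 genes changed 2-fold were called among 5562, as were 1.15% of unchanged genes. This simulation held counting error only and no spread between mice or libraries.

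Named genes were the 10, listed pathway genes past the fold or with a highest class of 100 CPM or more, and the nearest profiles. The 10 genes and all lists were chosen with earlier results of these data known. The call rule of 100 UMIs and 20 CPM was kept for every comparison, and the floor of 30 UMIs for zones and the alternatives on endothelial clusters, capillary-like cells and single cells were added after the values had been seen.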

Additional observations from a re-analysis of the deposited data

Results flagged for a closer look

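Barcodes left out by the filters still held the 10 genes, at a summed 144 CPM in the IL34LacZ/+ library and 96.5 CPM in the IL34LacZ/LacZ library. These sums came from 1549 and 2195 UMIs, so lying above the flag's floor of 3 UMIs says little. They were not compared with the level in kept cells. Id3 had log2 ratios of opposite sign between classes: -0.69 in endothelial-like and -0.60 in astrocyte-like cells but 2.13 in neuron-like cells, where 87.5% of the 32 UMIs of the IL34LacZ/LacZ library came from 1 cell. Bmp6 gave -1.31 in endothelial-like and 2.21 in astrocyte-like cells, from 59 and 15 UMIs and from 10 and 27 UMIs, with at least 50% of each sum in 1 cell. These differences between classes were not tested.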

How the results depend on the processing

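Over 26 ratios of a gene in a class and their alternatives, 339 values were recomputed: 317 stayed within the counting interval of the reported value, 22 moved beyond it and 0 called ratios reversed. Thinning to 1000 UMIs accounted for 15 of the 22. The count of 3 genes lower in endothelial-like cells became 1 with that thinning, 1 without the ribosomal-protein-rich cluster (where Id2 kept a log2 ratio of -0.67 but had 67 and 30 UMIs, under the floor of 100) and 0 with ratios pooled within clusters. The last 2 settings were chosen after seeing the data, and by construction the pooled ratio leaves out differences in cluster shares. The count of 1 lower in astrocyte-like cells became 0 with a 30% mitochondrial limit, with doublets kept, with cells gated on markers, with median-of-ratios scaling, with totals lacking haemoglobin and mitochondrial UMIs and with thinning, and 2 with no filter on low counts. The latter also raised the count higher there from 0 to 3. The count of 0 genes higher in arterial-like cells in both libraries became 1 with cells gated on zone markers (Tgfb2) and 1 with a floor of 30 UMIs (Smad6), a floor chosen because 100 had given 0. The causes of the other changes were not tested. No paired analysis was possible because each genotype had 1 library. Bmp6 had under 100 UMIs outside fibroblast-like and choroid plexus epithelium-like cells, and arterial-like cells of the IL34LacZ/LacZ library numbered 14, so intervals there are wide.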
